A study of Mus musculus with 12 samples.

Results

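The 33 genes described here form the interferon-gamma response and its immunity GTPases in the mouse ileum. They are 11 guanylate-binding proteins (Gbp2, Gbp2b, Gbp3 to Gbp11), 7 immunity-related GTPases (Iigp1, Igtp, Irgm1, Irgm2, Tgtp1, Tgtp2 and Ifi47) and 15 genes of the ligand, its receptor, its regulators and its targets. They were chosen by name, and all 33 were present among the 55891 genes of the table. Interferon-gamma is a cytokine released mainly by T cells and natural killer cells. It binds a receptor made of the chains IFNGR1 and IFNGR2, and the kinases JAK1 and JAK2 then pass the signal on. Among the genes induced are large GTPases that gather on the membranes around intracellular parasites and bacteria and take part in their destruction. In the small intestine the cytokine is known to act on epithelial cells, and intraepithelial lymphocytes are a known source of it.

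Transcript levels came from mRNA sequencing of scraped ileal mucosa, a mixture of epithelium and the cells beneath it, with 1 library per mouse. The study asks how the receptor gene Erbb3 bears on the intestinal barrier and on the junctional protein gene Pmp22. There were 6 mice labelled Erbb3-FF and 6 labelled ERBB3-dIE, from 2 litters. Litter A held Erbb3-FF mice 3 to 6 and ERBB3-dIE mice 4 to 6, and litter B held Erbb3-FF mice 1 and 2 and ERBB3-dIE mice 1 to 3. What the suffixes FF and dIE stand for, the promoter of any Cre driver, strain, age and sex were not found in the sources used. Values are TPM, transcript abundance on a scale with the same total in every library, which correct for gene length and library total, so levels can be compared between genes but the read depth is unknown.

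Erbb3 itself was not lower in the ERBB3-dIE libraries, with 87.3 to 151 TPM in the Erbb3-FF and 104 to 206 TPM in the ERBB3-dIE libraries, and since a level over the whole gene can miss the loss of an exon, it does not check the labels. Pmp22 was between 548 and 790 TPM in the Erbb3-FF libraries and between 135 and 250 TPM in the ERBB3-dIE libraries. The epithelial markers Epcam, Cdh1, Vil1, Krt8, Krt20 and Cdx2 were present in all 12 libraries. Erbb3-FF mice 1, 2 and 3 stood apart with summed B cell markers of 339, 153 and 131 TPM, against 5.29 to 19.3 TPM in the other 9 libraries. ERBB3-dIE mice 4 and 5 had the highest summed smooth muscle markers, 223 and 211 TPM, against at most 124 TPM elsewhere. In Erbb3-FF mice 5 and 6 ribosomal sequence made up 10.2% and 10.8% of the TPM, while it made up 1.62% or less elsewhere. In such mixed tissue more cells of a type and more RNA per cell cannot be told apart.

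Interferon-gamma acts through a short palindrome, the gamma-activated sequence or GAS, and its downstream factors bind the interferon-stimulated response element or ISRE. RefSeq (GRCm38.p6) gave promoter windows for 23 of the 33 members, and the 250 bases before each annotated transcript start were searched on both strands. The GAS letters were TTCNNNGAA, which read the same on both strands, and the ISRE core was GAAA, any 2 bases and GAAA again, or its reverse complement. The windows of 4 immunity-related GTPase genes held both motifs in a joined arrangement, GAS, 2 bases, then ISRE core. Their 120 bases next to the start are shown 5′ to 3′ in the direction of transcription, with matches to either motif in capitals. The same bases of 4 other members, Gbp7, Gbp3, Gbp2 and Ubd, stand beside them. RNA of these 4 and of Irgm2 and Tgtp2 was higher in ERBB3-dIE mice in the test described below, while Igtp and Tgtp1 did not pass. The positions are chr11:58199436-58199555 (+) for Igtp, chr11:58214857-58214976 (+) for Irgm2, chr11:48992247-48992366 (-) for Tgtp1 and chr11:49064213-49064332 (-) for Tgtp2. The others are chr3:142530216-142530335 (+) for Gbp7, chr3:142559924-142560043 (+) for Gbp3, chr3:142620543-142620662 (+) for Gbp2 and chr17:37193772-37193891 (+) for Ubd.
Igtp: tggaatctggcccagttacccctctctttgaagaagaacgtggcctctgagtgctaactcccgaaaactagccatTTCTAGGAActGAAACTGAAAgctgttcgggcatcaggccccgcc
Irgm2: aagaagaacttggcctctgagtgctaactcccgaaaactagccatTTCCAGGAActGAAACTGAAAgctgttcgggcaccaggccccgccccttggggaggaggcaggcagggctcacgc
Tgtp1: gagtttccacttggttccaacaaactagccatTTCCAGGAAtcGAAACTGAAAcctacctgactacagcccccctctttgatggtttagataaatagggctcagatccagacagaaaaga
Tgtp2: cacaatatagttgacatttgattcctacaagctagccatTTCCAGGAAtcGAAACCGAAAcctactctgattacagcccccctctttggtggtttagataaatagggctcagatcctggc
Gbp7: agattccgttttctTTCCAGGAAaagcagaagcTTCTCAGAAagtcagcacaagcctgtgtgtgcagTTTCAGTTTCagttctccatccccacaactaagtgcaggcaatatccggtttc
Gbp3: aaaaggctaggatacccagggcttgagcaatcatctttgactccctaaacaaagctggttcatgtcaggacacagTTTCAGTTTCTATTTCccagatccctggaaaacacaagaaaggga
Gbp2: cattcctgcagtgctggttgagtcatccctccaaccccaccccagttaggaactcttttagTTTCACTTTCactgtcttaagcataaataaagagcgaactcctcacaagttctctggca
Ubd: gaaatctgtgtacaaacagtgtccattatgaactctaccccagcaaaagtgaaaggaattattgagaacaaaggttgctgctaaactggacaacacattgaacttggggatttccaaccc
In Igtp the GAS began 45 bases and the ISRE core 34 bases before the start. The pair began at 75 and 64 bases in Irgm2, at 88 and 77 bases in Tgtp1 and at 81 and 70 bases in Tgtp2. Igtp and Irgm2 shared an identical run of 38 bases, Tgtp1 and Tgtp2 one of 27 bases, and all 4 shared one of 11 bases. Only this spacing of the joined letters was searched, so their share describes this pattern alone. They stood in 5 of 32851 promoter windows in all, 0.0152%, and the fifth belonged to the predicted gene Gm12185. That gene reached 1 TPM in 1 library only and was not tested. The Gbp7 window held the GAS letters at 106 and 87 bases and the ISRE core at 53 bases, in the other orientation. Gbp2 held an ISRE core at 59 bases, and Gbp3 a pair of overlapping ISRE cores in the window shown. A further annotated window of Gbp3 held neither motif. The Ubd window held neither motif.

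**Figure D1:**
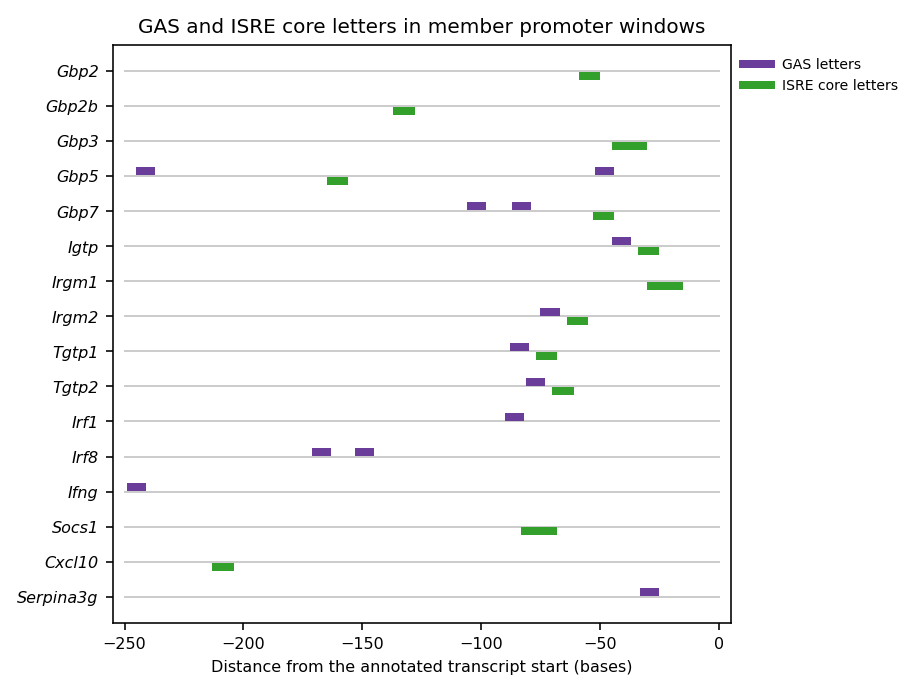
Positions of GAS (purple) and ISRE core (green) matches in the 250 bases before the annotated transcript start, in bases, for the 16 members with a match. In Igtp, Irgm2, Tgtp1 and Tgtp2 the GAS stands just ahead of the ISRE core, 11 bases from first base to first base.

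Over the 23 members with a window, 10 held the GAS letters, 12 the ISRE core and 6 held both, namely Gbp5, Gbp7, Igtp, Irgm2, Tgtp1 and Tgtp2. These members had 26 windows, and a member was counted if any of its windows matched. Gbp3, Irf1 and Irf8 each had a further window with neither motif. Of all 32851 windows, counted singly, 7.02% held the GAS letters, 2.98% the ISRE core and 0.332% held both. Neither motif was found in the windows of 7 members: Ubd, Ifi47, Cxcl9, Cd274, Ifngr1, Ifngr2 and Jak2. Windows were not at hand for Gbp4, Gbp6, Gbp8, Gbp9, Gbp10, Gbp11, Iigp1, Batf2, Cxcl11 and Ido1. A match of letters describes the window and not a bound site.

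Of the 33 members, 29 reached 1 TPM in at least 6 libraries and were tested with limma on log2(TPM + 0.5), with litter as a term and p-values adjusted over all 12605 genes tested. At an adjusted p under 0.05, 12 members were higher in ERBB3-dIE mice, while 1.66% of all tested genes were. These were 6 guanylate-binding protein genes, 4 immunity-related GTPase genes, Ido1 and Ubd. Another 2 members, Jak2 and Ifngr1, were lower, while 3.70% of all tested genes were. Differences throughout are ERBB3-dIE minus Erbb3-FF on the log2(TPM + 0.5) scale. The median difference over the 29 tested members was 0.96, beside -0.00 over all tested genes. The difference was positive in 24 of the 29, and 49.9% of all tested genes had a positive difference. In 22 of the tested members all 6 Erbb3-FF libraries reached 1 TPM, and 10 of these were higher and 2 lower. The other 7 reached the filter in part through ERBB3-dIE libraries. At an unadjusted p under 0.05, 20 members were higher and 3 lower, beside 8.71% and 13.1% of all tested genes. In the authors' deposited table, where all 33 members had an adjusted p, 21 were higher and 2 lower at an adjusted p under 0.05, beside 5.07% and 7.51% of the genes listed there.

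**Figure D2:**
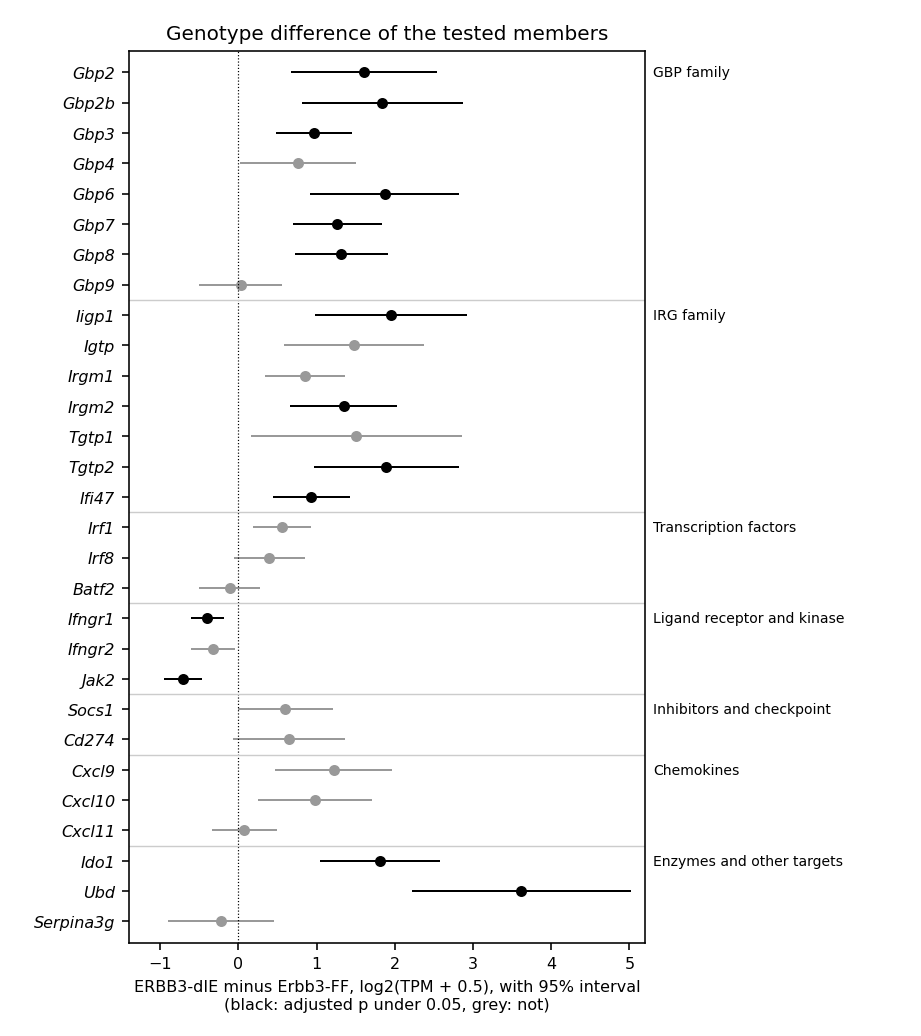
Genotype difference (ERBB3-dIE minus Erbb3-FF) of the 29 tested members on the log2(TPM + 0.5) scale, with 95% intervals from limma, grouped by role (black, adjusted p under 0.05). Most GTPase genes lie between 0.76 and 1.95, Ubd at 3.62, and the receptor and kinase genes lie below 0.

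The number of higher members varied with the library left out. It was 7 without ERBB3-dIE mouse 1, 6 without mouse 3 and 4 without mouse 4 or mouse 6. It was 3 without Erbb3-FF mouse 1 or mouse 2, and 5 without Erbb3-FF mouse 6. In these 7 fits 0.754% to 1.17% of all tested genes were higher, beside 1.66% with all 12 libraries. Leaving out any other library gave between 10 and 14 members, beside 0.896% to 1.69% of all tested genes. Gbp8, Ido1, Ubd and Jak2 passed in all 12 such fits, and none of the 14 called members changed sign in any. These fits share most of their libraries with the main fit, so an unchanged sign is not independent support.

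The guanylate-binding proteins are large GTPases that assemble as a coat on pathogen membranes. All 8 tested genes of this family had positive differences, 6 of them past the threshold, with a family median of 1.29. Gbp6 showed the largest difference of the family. It read 19.5, 15.1, 10.98 and 9.03 TPM in the 4 Erbb3-FF mice of litter A and 5.58 and 7.49 TPM in the 2 of litter B. The ERBB3-dIE mice read 22.9, 17.5 and 34.2 TPM in litter A and 90.0, 48.2 and 77.8 TPM in litter B. All but 1 of the ERBB3-dIE values lay above the highest Erbb3-FF value, and the 3 highest came from litter B. The difference was 1.87 (SE 0.43, limma adjusted p = 0.0310). The litter B ratio of means was 11.02 and that of litter A was 1.82.

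Gbp2b, also known as Gbp1, followed with a difference of 1.84 (SE 0.46, limma adjusted p = 0.0434). Its Erbb3-FF libraries read 7.33, 10.2, 6.96 and 18.3 TPM in litter A and 2.76 and 6.11 TPM in litter B. The ERBB3-dIE libraries read 35.2, 9.30 and 41.4 TPM in litter A and 53.3, 17.9 and 27.6 TPM in litter B. ERBB3-dIE mouse 5 lay within the Erbb3-FF range, and so did mouse 2, near its top. Its neighbour Gbp2 rose from 7.59 ± 4.59 to 21.7 ± 11.1 TPM (SD, n = 6 mice each), a difference of 1.60 (SE 0.42, limma adjusted p = 0.04999). The Gbp2 values were 4.10, 14.2, 10.5 and 10.04 TPM in litter A and 3.52 and 3.25 TPM in litter B of Erbb3-FF. In ERBB3-dIE mice they were 18.9, 12.3 and 30.4 TPM in litter A and 21.8, 8.60 and 38.2 TPM in litter B. In both genes 4 of 6 ERBB3-dIE mice lay above all Erbb3-FF mice. Gbp2 lay at the threshold itself and passed in 2 of the 12 fits that each left out 1 library, and so did Gbp2b.

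Gbp8 and Gbp7 had the smallest adjusted p of the family. Gbp8 read 9.28, 8.04, 5.59 and 5.37 TPM in litter A and 9.10 and 4.95 TPM in litter B of Erbb3-FF. It read 15.8, 8.56 and 15.7 TPM in litter A and 29.5, 22.7 and 32.2 TPM in litter B of ERBB3-dIE, so that only mouse 5 fell inside the Erbb3-FF range. The difference was 1.31 (SE 0.27, limma adjusted p = 0.0184). Gbp7, whose window above carries both motifs, read 1.93, 3.48, 2.88 and 2.45 TPM in litter A and 1.57 and 1.86 TPM in litter B of Erbb3-FF. In the ERBB3-dIE group it was at 7.36, 3.40 and 6.17 TPM in litter A and 7.59, 4.55 and 10.02 TPM in litter B. The difference was 1.27 (SE 0.26, limma adjusted p = 0.0184), and mouse 5 again lay inside the Erbb3-FF range.

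Ranges of the genotypes did not overlap for 3 higher members (Gbp3, Tgtp2 and Ubd) and 0 lower members, beside 1.02% and 1.43% of all tested genes. The level of Gbp3 was low, from 1.33 to 2.64 TPM (median 2.07) in the Erbb3-FF group and from 3.10 to 8.65 TPM (median 4.08) in the ERBB3-dIE group. The difference was 0.96 (SE 0.22, limma adjusted p = 0.0278), with litter values of 0.88 in litter A and 1.09 in litter B. In litter B the ERBB3-dIE mice read 8.65, 3.11 and 6.59 TPM and the Erbb3-FF mice 2.64 and 2.18 TPM.

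The remaining genes of the family were low and in the main fit did not pass or were not tested. Gbp4 read 0.815 to 2.51 TPM in the Erbb3-FF group and 1.11 to 4.70 TPM in the ERBB3-dIE group, with a difference of 0.76 (SE 0.33, limma adjusted p = 0.208). In litter A its 3 ERBB3-dIE values, 3.96, 2.08 and 4.70 TPM, lay above all 4 Erbb3-FF values, whereas in litter B the groups overlapped. Gbp9 went from 1.18 ± 0.798 to 1.21 ± 0.375 TPM (SD, n = 6 mice each), a difference of 0.03. Gbp10 was near 0 in Erbb3-FF mice, at 0 to 0.777 TPM, and read 0.756 to 5.48 TPM in ERBB3-dIE mice. It was under the filter, with 1 TPM reached in 5 ERBB3-dIE and 0 Erbb3-FF libraries. Limma without the filter gave Gbp10 a difference of 1.74 with an adjusted p of 0.0278. Its exact 2-sided permutation p over all relabellings, which ignore litter, was 0.00433 for 6 against 6 mice, where the smallest possible is 0.00216. Gbp11 read 0 to 0.183 TPM in the Erbb3-FF group and 0.156 to 1.42 TPM in the ERBB3-dIE group. Gbp5 read 0.325 to 1.24 TPM and 0.453 to 1.20 TPM, with all ERBB3-dIE values inside the Erbb3-FF range.

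The family sits in 2 clusters, and the order of neighbouring coding genes in RefSeq was Gbp5, Gbp7, Gbp3, Gbp2b, Gbp2 in one and Gbp8, Gbp9, Gbp4, Gbp10, Gbp6 in the other. In the first cluster all 4 tested genes passed, and Gbp5 was not tested. In the second, Gbp8 and Gbp6 passed, Gbp9 and Gbp4 between them did not, and Gbp10 was not tested. Reads of 75 bases cannot always be placed in this family. Of all stretches of 75 bases in the GENCODE M21 transcripts, 67.3% in Gbp6 and 77.8% in Gbp10 also occurred in another gene, most of them in the predicted gene Gm43302. Gm43302 was listed at 0 in 9 libraries and at no more than 0.431 TPM in the others. How the reads were divided between these genes is uncertain. The shared part was 11.3% in Gbp7, 8.04% in Gbp8, 2.06% in Gbp3, and 0.955% in Gbp2.

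**Figure D3:**
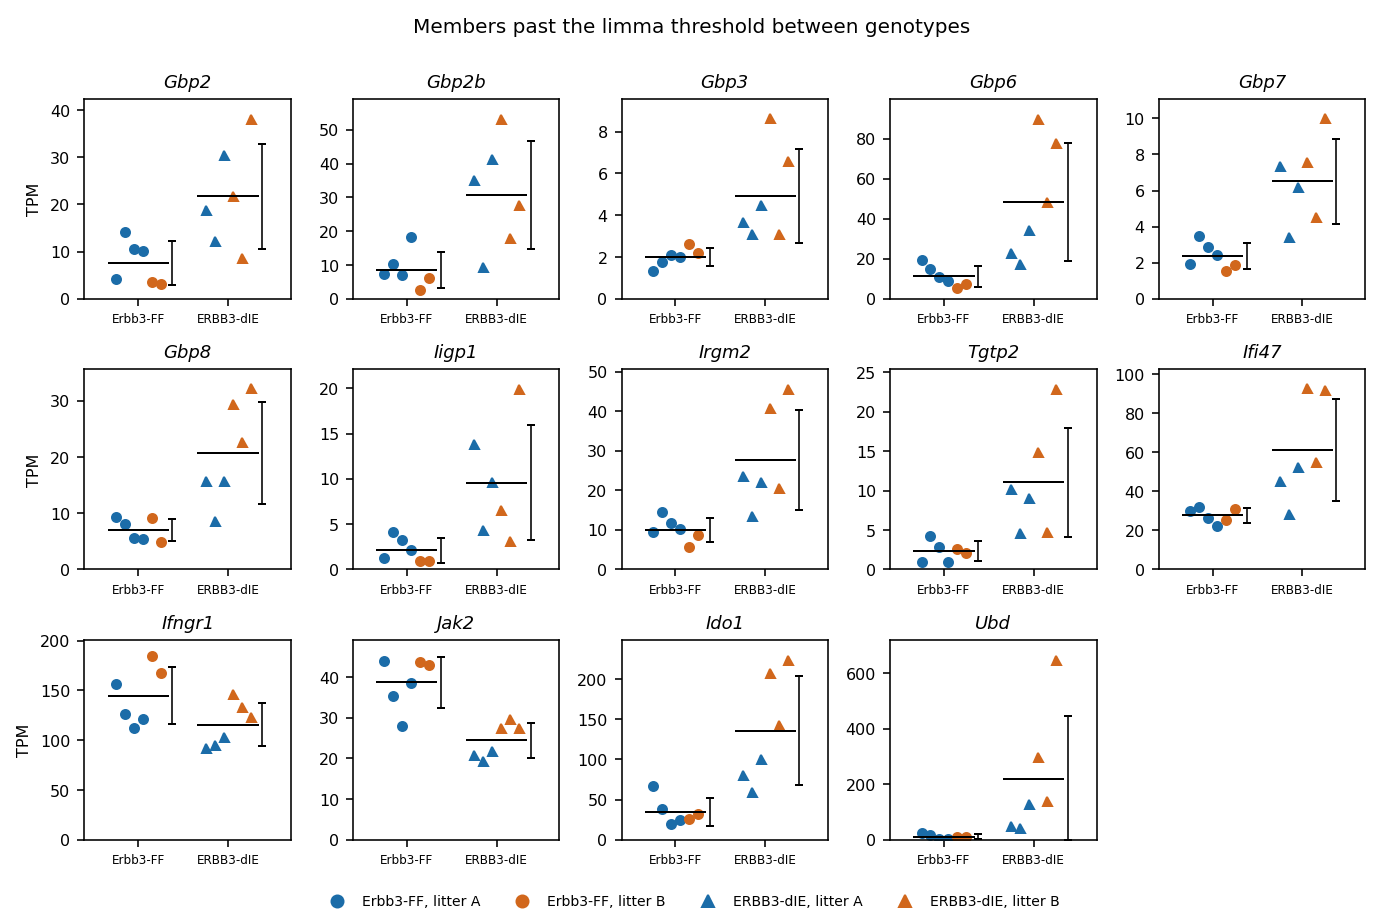
TPM of the 14 members past the limma threshold in each of the 12 mice, by genotype and litter (blue, litter A; orange, litter B), with the mean as a line and the SD over 6 mice as a bar (cut at 0 for Ubd). Gbp3, Tgtp2 and Ubd show no overlap between genotypes, and in Jak2 all but 1 of the ERBB3-dIE mice lie below every Erbb3-FF mouse.

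The immunity-related GTPases fall into effectors that load onto the vacuoles of parasites (Iigp1, Tgtp1, Tgtp2, Ifi47 and their kin) and regulators of the Irgm type that protect the cell's own membranes. All 7 were tested, all had positive differences, and 4 passed, with a median of 1.47. Iigp1 had the largest difference, 1.95 (SE 0.44, limma adjusted p = 0.0287). Its Erbb3-FF values were 1.22, 4.17, 3.27 and 2.14 TPM in litter A and 0.904 and 0.958 TPM in litter B. Its ERBB3-dIE values were 13.9, 4.30 and 9.65 TPM in litter A and 6.56, 3.18 and 19.9 TPM in litter B. The groups did not overlap within either litter, as in 2.46% of all tested genes in this direction, but ERBB3-dIE mouse 2 lay below the top of the Erbb3-FF range.

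Tgtp2 read 0.935, 4.29, 2.89 and 0.951 TPM in litter A and 2.62 and 2.09 TPM in litter B of Erbb3-FF. ERBB3-dIE libraries gave 10.2, 4.56 and 9.02 TPM in litter A and 14.9, 4.71 and 22.8 TPM in litter B, with no overlap between genotypes. The difference was 1.89 (SE 0.42, limma adjusted p = 0.0267). Its near copy Tgtp1 read 0.878 to 5.22 TPM in the Erbb3-FF group and 1.54 to 19.3 TPM in the ERBB3-dIE group and did not pass, with a difference of 1.50 (SE 0.61, limma adjusted p = 0.176). Of the 75-base stretches of Tgtp2, 81.4% also occurred in Tgtp1. The split between this pair is therefore uncertain.

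Irgm2 read 9.51, 14.6, 11.8 and 10.2 TPM in litter A and 5.55 and 8.58 TPM in litter B of Erbb3-FF. Levels in ERBB3-dIE mice were 23.8, 13.6 and 22.0 TPM in litter A and 40.9, 20.5 and 45.7 TPM in litter B. Its difference was 1.34 (SE 0.31, limma adjusted p = 0.0308), and mouse 5 alone lay inside the Erbb3-FF range. Ifi47, the most abundant of the 7 genes in ERBB3-dIE mice, read 30.0, 31.9, 26.3 and 22.0 TPM in litter A and 25.4 and 31.1 TPM in litter B of Erbb3-FF. The ERBB3-dIE values were 45.2, 28.6 and 52.4 TPM in litter A and 93.1, 54.8 and 91.9 TPM in litter B. The difference was 0.93 (SE 0.22, limma adjusted p = 0.0350), and again mouse 5 was the exception.

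Igtp and Irgm1 missed the threshold. Igtp, the neighbour of Irgm2, went from 15.3 ± 6.22 to 45.9 ± 25.0 TPM (SD, n = 6 mice each), a difference of 1.47 (SE 0.40, limma adjusted p = 0.0577) with an interval of 0.59 to 2.36. Its ERBB3-dIE values were 39.8, 17.3 and 35.7 TPM in litter A and 70.3, 30.1 and 82.1 TPM in litter B, against 13.7, 24.4, 19.9 and 14.6 TPM and 6.36 and 12.7 TPM in Erbb3-FF. Irgm1, a regulator with the second highest level of the family, went from 27.5 ± 6.99 to 50.7 ± 15.4 TPM (SD, n = 6 mice each), a difference of 0.85 (SE 0.23, limma adjusted p = 0.0534).

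Among the other targets, Ubd had the largest difference of all members. It encodes FAT10, a ubiquitin-like modifier that marks proteins for degradation and is induced by interferon-gamma with tumour necrosis factor. Ubd read 25.0, 19.4, 2.97 and 4.42 TPM in litter A and 10.9 and 9.11 TPM in litter B of Erbb3-FF. In ERBB3-dIE mice it read 48.3, 43.0 and 131 TPM in litter A and 298, 139 and 647 TPM in litter B. The genotypes did not overlap, and ERBB3-dIE mice spanned from 43.0 to 647 TPM. The difference was 3.62 (SE 0.63, limma adjusted p = 0.0108), with 2.76 in litter A and 4.84 in litter B. The ratio of means was 18.2, and 11.02 without ERBB3-dIE mouse 3, which had the highest value.

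Ido1 encodes the enzyme that opens the tryptophan ring and starts the kynurenine path. It read 67.6, 38.8, 19.2 and 25.2 TPM in litter A and 26.5 and 32.4 TPM in litter B of Erbb3-FF. The ERBB3-dIE mice read 80.9, 59.3 and 100.1 TPM in litter A and 208, 142 and 224 TPM in litter B. ERBB3-dIE mouse 5 lay below the highest Erbb3-FF mouse, which was mouse 3, and the other 5 lay above it. The difference was 1.81 (SE 0.35, limma adjusted p = 0.0155), and the ratio of means was 2.12 in litter A and 6.50 in litter B. Serpina3g, a serine protease inhibitor gene, went from 4.06 ± 2.62 to 3.26 ± 0.958 TPM (SD, n = 6 mice each), a difference of -0.22.

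The chemokines CXCL9, CXCL10 and CXCL11 attract T cells through the receptor CXCR3, and 0 of their 3 genes passed in limma. Cxcl9 read 1.55, 3.58, 5.24 and 3.04 TPM in litter A and 1.26 and 2.81 TPM in litter B of Erbb3-FF. In the ERBB3-dIE group it was at 4.56, 7.05 and 10.9 TPM in litter A and 11.6, 3.78 and 4.79 TPM in litter B. The overlap came from the highest Erbb3-FF mouse, mouse 5, and the difference was 1.22 (SE 0.34, limma adjusted p = 0.0604). Cxcl10 went from 2.91 ± 1.82 to 6.03 ± 2.35 TPM (SD, n = 6 mice each), a difference of 0.97 (SE 0.33, limma adjusted p = 0.108). The unadjusted limma p of Cxcl9 and Cxcl10 was under 0.05 and that of Cxcl11, with a difference of 0.08, was not.

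The transcription factors IRF1 and IRF8 carry the response onwards, and BATF2 is a partner of IRF1. None of their 3 genes passed in limma, and 1, Irf1, had an unadjusted p under 0.05. Irf1 was by far the most abundant, at 114, 133, 100.4 and 129.6 TPM in litter A and 97.6 and 115 TPM in litter B of Erbb3-FF. ERBB3-dIE libraries gave 150.0, 113 and 190.2 TPM in litter A and 213, 158 and 227 TPM in litter B. All but mouse 5 lay above the highest Erbb3-FF mouse, and the difference was 0.55 (SE 0.16, limma adjusted p = 0.0747). Irf8 went from 40.7 ± 8.64 to 53.5 ± 15.6 TPM (SD, n = 6 mice each) and Batf2 from 38.6 ± 7.08 to 35.8 ± 7.65 TPM (SD, n = 6 mice each), with differences of 0.40 and -0.11.

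SOCS1 blocks JAK kinases as a feedback inhibitor, and Cd274 encodes the checkpoint ligand PD-L1. Socs1 went from 1.23 ± 0.519 to 2.14 ± 0.882 TPM (SD, n = 6 mice each), a difference of 0.60 (SE 0.27, limma adjusted p = 0.227) with an interval of 0.00 to 1.19. Cd274 went from 4.79 ± 1.53 to 8.50 ± 4.38 TPM (SD, n = 6 mice each), a difference of 0.65 (SE 0.32, limma adjusted p = 0.267). Neither passed, and the ERBB3-dIE values of both were above all Erbb3-FF values in litter B only.

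Of the receptor and kinase genes 3 were tested and 2 were lower in ERBB3-dIE mice. JAK2 is the kinase bound to the IFNGR2 chain and also serves cytokine and growth hormone receptors. Jak2 read 43.9, 35.2, 27.9 and 38.6 TPM in litter A and 43.7 and 42.9 TPM in litter B of Erbb3-FF. Levels in ERBB3-dIE mice were 20.9, 19.3 and 21.9 TPM in litter A and 27.4, 29.7 and 27.6 TPM in litter B. The genotypes did not overlap within either litter, and over both litters ERBB3-dIE mouse 2 lay above Erbb3-FF mouse 5. For Jak2, and for Ifngr1 below, the share of all genes lower without overlap in each litter is not given. The difference of Jak2 was -0.71 (SE 0.11, limma adjusted p = 0.00568), with -0.78 in litter A and -0.61 in litter B.

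Ifngr1, the ligand-binding chain, read 157, 127, 112 and 122 TPM in litter A and 185 and 167 TPM in litter B of Erbb3-FF. In ERBB3-dIE mice it read 92.5, 95.6 and 103 TPM in litter A and 146, 133 and 123 TPM in litter B. It was lower in ERBB3-dIE mice without overlap in each litter, but the ranges overlapped over both litters. The difference was -0.40 (SE 0.09, limma adjusted p = 0.0296), and litter B exceeded litter A by 0.46 (limma adjusted p = 0.0222). Ifngr1 passed in 5 of the 12 fits that each left out 1 library. Without the litter term its limma adjusted p was 0.339. Ifngr2, the second chain, read 143, 106, 85.2 and 104 TPM in litter A and 129 and 157 TPM in litter B of Erbb3-FF. The ERBB3-dIE mice read 74.4, 80.8 and 99.8 TPM in litter A and 123, 111 and 115 TPM in litter B, and the gene did not pass, with a difference of -0.33 (SE 0.12, limma adjusted p = 0.155). Of the 6 epithelial markers tested beside them, 5 had negative differences and 1, Cdx2, a difference of 0.016. Krt20 alone of these passed (-0.59 on the log2 scale, limma adjusted p = 0.0138), where 3.70% of all tested genes were lower. The part of epithelial content in this result was not tested.

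The ligand gene Ifng was close to the lower limit of the measurement and under the filter. It read 0.0888, 0.354, 0.294 and 0.0919 TPM in litter A and 0 and 0.141 TPM in litter B of Erbb3-FF. In the ERBB3-dIE group it was at 0.898, 0 and 0.592 TPM in litter A and 0.891, 1.16 and 1.78 TPM in litter B. All but 1 of the ERBB3-dIE mice lay above the highest Erbb3-FF mouse, and mouse 5 was listed at 0. The exact 2-sided permutation p was 0.0195 over all relabellings, and limma without the filter gave a difference of 0.90 with an adjusted p of 0.218. In that fit 5 of the 33 members, Gbp10 among them, were higher at an adjusted p under 0.05, beside 0.378% of all genes.

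The genotype difference was compared between the litters. It was positive in both litters for all 12 higher members and was larger in litter B for each of them. These members were chosen by their difference over the same mice, so the positive sign in each litter is not independent support. For Gbp6 the difference was 0.84 in litter A and 3.33 in litter B, for Irgm2 0.74 and 2.21, and for Ido1 1.21 and 2.66. Within litter B the genotypes did not overlap for 19 higher members, beside 8.73% of all tested genes, and within litter A for 6, beside 11.7%. For Tgtp2 the values were 1.73 and 2.12, an interaction of 0.38 with an interval of -1.56 to 2.33, and for Gbp3 they were 0.88 and 1.09. The interaction of genotype and litter passed in limma for 0 members and 0 of all 12605 genes. At an unadjusted p under 0.05 it was positive for 7 members (Gbp6, Gbp8, Igtp, Irgm2, Ifi47, Ido1 and Batf2), beside 1.73% of all genes. It was negative for Serpina3g, beside 7.58% of all genes. The smallest p was that of Gbp6, with an interaction of 2.49, an unadjusted p of 0.000394 and an adjusted p of 0.171 in limma. A positive interaction was found in 25 of 29 tested members and in 33.7% of all genes. It was not particular to the members among the gene lists described below. It was positive in 20 of 21 type I and type III interferon genes and 16 of 18 class II and antigen processing genes. Among other interferon-gamma targets it was positive in 11 of 17.

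**Figure D4:**
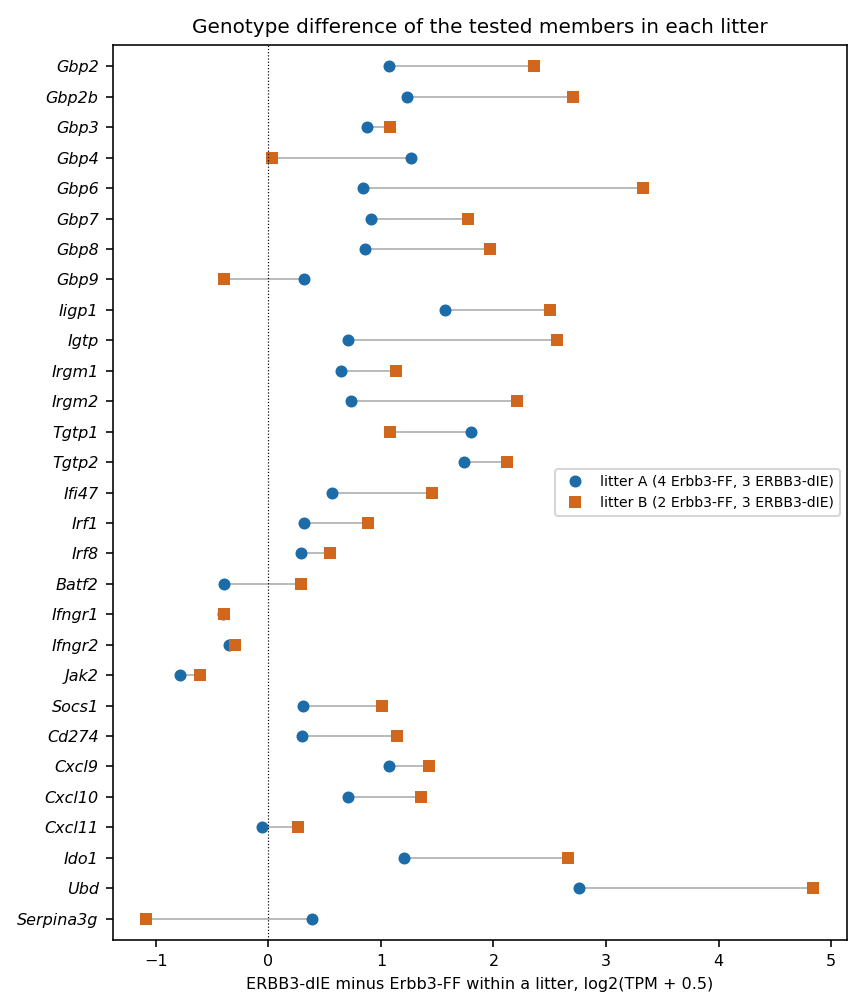
Genotype difference of the 29 tested members in litter A (blue circles) and litter B (orange squares), as the mean of log2(TPM + 0.5) in ERBB3-dIE minus that in Erbb3-FF mice. The orange squares lie to the right for most GTPase genes, Ido1 and Ubd, while Ifngr1, Ifngr2 and Jak2 are negative and close together in both litters.

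In litter B the 2 Erbb3-FF mice were also those with the highest B cell marker sums, 339 and 153 TPM, against 6.15 to 19.3 TPM in its ERBB3-dIE mice. Their macrophage and dendritic cell marker sums, 281 and 160 TPM, were also the highest, against 63.7 to 65.8 TPM in those ERBB3-dIE mice. No fit took the macrophage and dendritic cell markers as a term. With the mean log2 level of the B cell markers as a further term, 0 members passed in either direction in limma, and of all tested genes 0.167% were higher and 0.222% lower. At an unadjusted p under 0.05, 12 members were higher and 2 lower, beside 6.99% and 6.30% of all tested genes, and all 14 called members kept the sign of the difference. In that fit the difference of Gbp6 was 1.47, that of Irgm2 0.90, that of Ido1 1.82 and that of Ubd 3.77. The part of this tissue difference in the result was not tested further. The litter term called 1 member, Ifngr1, where 8.55% of all genes were called, and 4 members had an unadjusted p under 0.05, beside 29.4% of all genes.

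Markers of T cells and intraepithelial lymphocytes were compared in the same libraries. The summed TPM of 15 such markers was 129 to 239 in Erbb3-FF and 207 to 743 in ERBB3-dIE mice. Of 13 tested markers 4 were higher (Gzma by 1.83, Ccl5 by 1.62, Cd7 by 1.39 and Cd8a by 1.20 on the log2 scale, all limma), beside 1.66% of all tested genes. All 13 had positive differences, beside 49.9% of all tested genes, and none of the 15 was listed at 0 in any library. The sum of the 18 GTPase genes was 95.6 to 180 TPM (median 125) in the Erbb3-FF group and 164 to 558 TPM (median 323) in the ERBB3-dIE group. ERBB3-dIE mouse 1 had 510 TPM of GTPase transcripts and 743 TPM of T cell markers, and mouse 3 had 558 and 576 TPM. Mouse 2 had 262 TPM of GTPase transcripts at 207 TPM of T cell markers, a marker level within the Erbb3-FF range. The GTPase sum divided by the marker sum was 0.50 to 1.08 in Erbb3-FF and 0.583 to 1.27 in ERBB3-dIE mice, and these ranges overlapped.

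**Figure D5:**
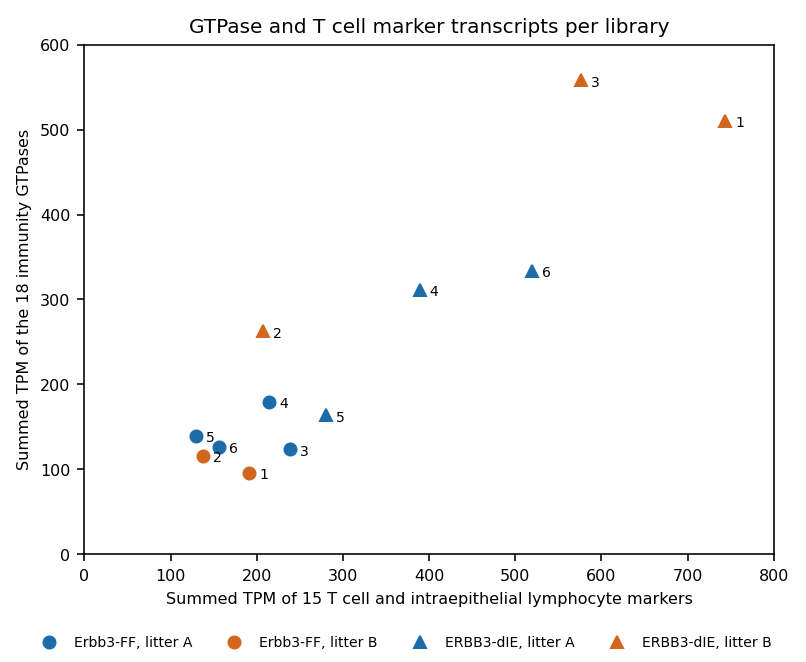
Summed TPM of the 18 GTPase genes (vertical) against summed TPM of 15 T cell and intraepithelial lymphocyte markers (horizontal) in each library, labelled by mouse number. The 6 Erbb3-FF mice lie together at the lower left, ERBB3-dIE mouse 5 lies near them, and ERBB3-dIE mice 1 and 3 are highest on the vertical axis.

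With the mean log2 level of the T cell markers as a further term, 0 members were higher in limma, beside 0.349% of all tested genes, and the same 2, Jak2 and Ifngr1, were lower, beside 1.84%. At an unadjusted p under 0.05, 10 members were higher, beside 4.34% of all tested genes. In that fit the difference of Gbp6 was 1.29, that of Gbp8 0.81, that of Ido1 1.20, that of Ubd 2.21 and that of Jak2 -0.78. The part of T cell content in the genotype difference was not tested beyond this. Of 3 tested natural killer and innate lymphoid markers 0 passed in limma and 1 had an unadjusted p under 0.05. The differences of these 3 ran from -0.30 to 1.09, and 2 were positive. Of 9 tested macrophage and dendritic cell markers both counts were 0. Their genotype difference varied with litter, however. The interaction of genotype and litter was positive in 0 of these 9 and had an unadjusted limma p under 0.05 in 8. Of all tested genes, 7.58% had a negative interaction at that level. Of the 7 natural killer and innate lymphoid markers listed, Ncr1 and Klrb1c stayed at or under 0.229 and 0.649 TPM and were not tested.

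The genes that lead to interferon-gamma release were mostly low. Of 12 such genes 2 were tested, and Il18, an epithelial cytokine that stimulates its release, was lower in ERBB3-dIE mice, at 10.6 ± 3.22 TPM against 28.7 ± 15.1 TPM (SD, n = 6 mice each). Its log2 difference was -1.31 with a limma adjusted p of 0.0436. Of 10 further signalling genes, among them Jak1 and Socs3, 0 passed in limma and 3 had an unadjusted p under 0.05. The median of this list was -0.02. Of all tested genes, 8.71% were higher and 13.1% lower at that unadjusted level.

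Of 18 class II and antigen processing genes 2 were higher and 0 lower, beside 1.66% and 3.70% of all tested genes. Their median difference was 0.62. Nlrc5, the activator of class I genes, rose by 1.36 (limma adjusted p = 0.0109), from 4.46 ± 1.78 to 12.1 ± 3.16 TPM (SD, n = 6 mice each). Psmb9, an immunoproteasome subunit, rose by 1.02 (limma adjusted p = 0.0473). Of 17 other tested interferon-gamma targets 3 were higher and 1 lower, beside the same 1.66% and 3.70%, with a median of 0.39. Ly6a rose by 1.30, Wars1 by 0.56 and Trim21 by 0.39, and Apol9b was lower, by -2.02 on the log2 scale, all past the limma threshold. The ranges of Wars1 and Trim21 did not overlap between genotypes, as in 1.02% of all tested genes in this direction.

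Genes known mainly from the type I and type III interferon response formed a further list. Of its 21 tested genes 0 passed in limma, 4 had an unadjusted p under 0.05, and the median was -0.04. Of all tested genes, 8.71% were higher and 13.1% lower at that unadjusted level. The smallest p of the list was that of Bst2, with a difference of 0.58 and a limma adjusted p of 0.0817. Of 8 genes that work with the GTPases in defence of the cell's interior, 0 passed in limma, 1 had an unadjusted p under 0.05, and the median was -0.08. Rnf213, a ubiquitin ligase that coats bacteria, had the smallest p, with a difference of 0.48 and a limma adjusted p of 0.141. A difference between these lists and the 29 tested members was not tested.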

How the data were processed

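Per the labels' protocols, RNA of scraped ileal mucosa was sequenced as single-end reads of 75 bases after a stranded mRNA preparation. The submitters' processing notes name Salmon 1.10.0, CASAVA and DESeq2 with the build GRCm39, and the annotation release was not found in the sources used. The authors deposited 1 table of TPM per library, each library summing to 1000000, beside the authors' own test (log2 fold change, its standard error, p-value and adjusted p-value). Another 5 numeric columns, such as means over mice, belong to no single mouse and were not used.

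No count model was fitted, since TPM keep no depth. The 12605 genes that reached 1 TPM in 6 or more of 12 libraries were tested on log2(TPM + 0.5), which understates the change of low genes, with limma 3.58.1 in R 4.3.3 (lmFit, eBayes with a variance trend) and the terms litter and genotype. P-values were Benjamini-Hochberg adjusted over these genes (threshold 0.05), and intervals are 95%. A second limma model added the interaction. Values ± are SD over mice. The fit was tested on simulated data with known changes. Genotype, litter and mouse number came from the labels. The members and the other gene lists were chosen with earlier results of these data known. All 33 members may be named, and of each other list those past the threshold, or else the one with the smallest p. Gm12185 and Gm43302 were added after their motif or sequence matches were seen.

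Single values outside the filter were compared with exact permutation tests (924 relabellings, or 350 within litters). Promoter sequences are from RefSeq (GRCm38.p6), and only the bases before each start were searched. The table has another build, so gene coordinates are left out and gene order alone was taken from RefSeq. Shared stretches were counted in GENCODE M21 transcripts. Alternatives changed the pseudocount, filter, scaling (3 others), variance model, weights or litter term, added a block for mouse number or the mean log2 level of 1 of 3 marker lists, took 1 litter or left out 1 library, or used a permutation test or the authors' test. Leaving out the libraries rich in ribosomal sequence, smooth muscle or B cell genes was added after the data were seen. Figures were drawn with matplotlib 3.10.9.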

Additional observations from a re-analysis of the deposited data

Results flagged for a closer look

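In Erbb3-FF mice, 3 values stood far from the other 5 of their group by Dixon's test, of 66 groups of 6 mice examined, and chance alone flags about 1 in 20 groups. Gbp9 read 2.74 TPM in Erbb3-FF mouse 1, against 0.636 to 1.14 TPM in the other 5. Serpina3g read 9.24 TPM in the same mouse, against 2.10 to 4.10 TPM in the other 5. Cxcl10 read 6.41 TPM in Erbb3-FF mouse 4, against 1.66 to 3.12 TPM in the other 5. Serpina3g differed between genotypes in opposite directions in the litters without overlap. In litter A the ERBB3-dIE mice lay above all Erbb3-FF mice, and in litter B, where they averaged 2.76 TPM, below both. This opposition of ranges was not tested itself, and the limma interaction of Serpina3g was -1.47 with an adjusted p of 0.347.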

How the results depend on the processing

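All 14 members past the threshold kept their sign in every limma alternative in which they were tested, including each library left out. They were chosen in the same libraries that the alternatives reuse, so an unchanged sign is not independent support. The number that passed varied. Against 12 higher and 2 lower, beside 1.66% and 3.70% of all tested genes, it was 5 and 1 with no filter, beside 0.378% and 0.881%. It was 13 and 1 with median-of-ratios size factors, beside 2.17% and 3.76%. Without the litter term it was 8 and 1, beside 0.690% and 1.24%. It was 0 and 0 in litter A alone, where 0.0317% of all tested genes were higher and 0.0159% lower. In litter B alone it was 2 and 0, beside 0.0476% and 0.0714%. It was 0 and 0 with B cell markers as a covariate, beside 0.167% and 0.222%. With T cell markers it was 0 and 2, beside 0.349% and 1.84%. Leaving out each library in turn gave 3 to 14 higher, 1 to 2 lower and 0 to 3 between litters. In those fits 0.754% to 1.69% of all tested genes were higher and 1.51% to 4.93% lower. With choices made after seeing the data it was 2 and 2 without Erbb3-FF mice 5 and 6, beside 0.658% and 2.92%. It was 8 and 0 without ERBB3-dIE mice 4 and 5, beside 0.341% and 0.516%. Without Erbb3-FF mice 1, 2 and 3 it was 0 and 0, beside 0.111% and 0.167%. By the authors' deposited test it was 21 and 2, beside 5.07% and 7.51% of the genes listed there. The exact permutation test within litters gave 0 and 0 after adjustment. Its smallest possible p is 0.00286, so a pass would need very many genes at that floor. This 0 and 0 therefore decides nothing about the members. At an unadjusted p under 0.05 the permutation test gave 17 and 3. The share over all genes is not given, so these counts cannot be judged either. Litter called 1 member in the main fit, beside 8.55% of all tested genes. It called 3 with at least 5 TPM or with library weights, and 4 without Erbb3-FF mice 1, 2 and 3. In that last fit litter B held ERBB3-dIE mice only. Litter called 0 members with the B cell or smooth muscle covariate, without Erbb3-FF mice 5 and 6, or without ERBB3-dIE mice 4 and 5. For litter counts outside the main fit the share over all genes is not given, so these counts cannot be judged. The interaction called 0 members wherever it was fitted, and it could not be fitted without Erbb3-FF mice 1, 2 and 3. With mouse number as a block, 2 members were higher, 1 lower and 0 differed between litters. In that fit 0.539% of all tested genes were higher and 1.17% lower. The numbers were not taken to pair mice, since same-numbered mice correlated at 0.0739 to 0.357, 5 of 6 pairs over 0.1 and 2 of 6 best with their own number.

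Members that had not passed turned sign in some settings. Gbp9 (0.03) was -0.031 with quantile normalization, -0.40 in litter B alone, -0.29 with the T cell covariate, -0.088 without Erbb3-FF mice 5 and 6, -0.12 without ERBB3-dIE mice 4 and 5, and -0.077 to 0.25 with 1 library left out. Cxcl11 was -0.053 in litter A alone and -0.28 with the T cell covariate, under which Irf8 (0.40) was -0.078. Serpina3g (-0.22) was 0.39 in litter A alone, 0.32 with the B cell covariate, 0.44 without Erbb3-FF mice 1, 2 and 3, and -0.39 to 0.10 with 1 library left out. Batf2 was 0.29 in litter B alone and 0.066 without ERBB3-dIE mice 4 and 5. The cause was not tested. TPM keep no read depth, so no counting error can be given for the low genes Ifng, Gbp5, Gbp10 and Gbp11.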
